A study of Homo sapiens with 4 samples.

Results

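The classical cadherins CDH1, CDH2, CDH3 and CDH11, the intermediate filament protein gene VIM and the transcription factor genes ZEB1, ZEB2, SNAI1, SNAI2 and TWIST1 were compared between 2 arrays of cells labelled ARID1A wild type and 2 arrays of cells labelled ARID1A knockout. Members were chosen by gene symbol: every probe set whose only symbol in the platform annotation was one of these 10 names was taken. That gave 23 of the 54613 probe sets in the table and 10 of 19775 genes. All 4 arrays were labelled as HuCCT1, an established human cholangiocarcinoma (bile duct cancer) cell line, and no other treatment or time was given. Per the labels, the knockout cells had received a lentivirus carrying Cas9 and a guide RNA against ARID1A, were selected with puromycin and were cloned by limiting dilution. The labels do not say how many clones the knockout arrays hold, whether the wild-type cells received a control virus or were cloned, or whether arrays sharing a label are separate cultures. The p-values below reflect the spread among these 4 arrays alone, and that spread may be technical.

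Classical cadherins are calcium-dependent adhesion proteins that join neighbouring cells through their extracellular repeats and hold the actin skeleton through catenins. E-cadherin (CDH1) is the cadherin of epithelia such as the bile duct lining. In an epithelial-mesenchymal transition a cell gives up epithelial junctions, often replaces E-cadherin by N-cadherin (CDH2) and strengthens vimentin filaments, and the ZEB, SNAI and TWIST factors can drive this by binding E-box sequences in epithelial genes and repressing them. ARID1A is the large DNA-binding protein of BAF, a SWI/SNF complex that remodels chromatin. The comparison asked whether lower epithelial cadherins came together with higher mesenchymal genes in the cells labelled ARID1A knockout.

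Of the 10 genes, 2 rose and 4 fell in the cells labelled knockout. CDH1 and CDH3 fell 11.4-fold and 17.3-fold, SNAI2 fell 11.1-fold, and CDH2 fell 1.47-fold. VIM rose 2.6-fold and ZEB1 rose 3.85-fold. CDH11, ZEB2, SNAI1 and TWIST1 did not pass the threshold and stood below the median of all genes in both groups. The lower epithelial cadherins thus came with higher VIM and ZEB1, but with lower, not higher, CDH2 and SNAI2.

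Changes were called with limma at an adjusted p under 0.05 (Benjamini-Hochberg over all 19775 genes), and every adjusted p below comes from that fit unless a probe set is named. By this rule 38.7% of all genes were called, 21.5% higher and 17.2% lower. The share of called members, 6 of 10, is to be read against that high background. At 2-fold or more, 5 members were called, against 16.6% of all genes. The arrays of the groups did not overlap in 8 of the 10 members and in 66.4% of all genes. The median size of the difference was 0.96 on the log2 scale over the members and 0.29 over all genes.

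The arrays of a group correlated at 0.997 (wild type) and 0.995 (knockout-labelled) across genes, and arrays of different groups at 0.92 to 0.921. Genes are not independent replicates. When the arrays were checked for sample identity, 2 of the 4 differed from the remaining 2. The groups are therefore named by their labels, and the origin of the cells and the labelled knockout cannot be told apart as sources of the differences. ARID1A itself read 8.55 and 8.61 in the wild type against 6.15 and 5.95 (log2 difference −2.53 ± 0.11 SE, limma adjusted p = 0.00014). It was lower in 3 of its 4 probe sets. Of 6 measured cholangiocyte markers, EPCAM, KRT7 and KRT19 were lower, KRT8 was higher, and KRT18 and SOX9 did not pass (66.7% called, against 38.7% of all genes). The mean level of these markers was 11.06 to 11.17 in the wild type against 9.97 to 10.03. EPCAM, an epithelial adhesion molecule, read 12.19 and 12.04 in the wild type against 7.42 and 7.34 (−4.73 ± 0.11, adjusted p = 2.57e-05). Values are the deposited log2 values with no detection call, so a value near the bottom of an array is a place in the array and not a measured level. In these bulk RNA samples fewer cells of a type and less RNA per cell cannot be told apart.

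**Figure D1:**
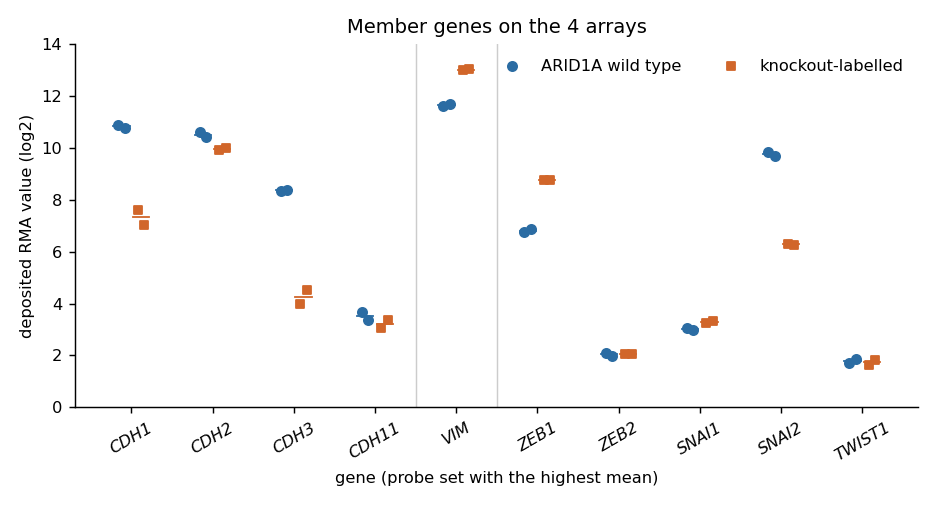
Deposited log2 value (vertical axis) of each member gene on each array, at the probe set with the highest mean, with circles for the 2 wild-type arrays, squares for the 2 knockout-labelled arrays and short lines for the group means. CDH1, CDH3 and SNAI2 drop clear of the wild-type points, VIM and ZEB1 rise, and CDH11, ZEB2, SNAI1 and TWIST1 lie low in both groups.

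E-cadherin (CDH1), the adhesion protein of epithelial adherens junctions, was among the bright genes of the wild-type cells. Its values were 10.89 and 10.78 in the wild-type arrays against 7.61 and 7.04 in the knockout-labelled arrays. Both knockout-labelled arrays lay below both wild-type arrays, and they differed from each other more than the wild-type arrays did. The log2 difference was −3.51 ± 0.21 (SE, adjusted p = 0.000302), and 245 of all genes (1.24%) fell at least as far. The mean stood at percentile 97.2 of all genes in the wild type and at 71.8 in the other group, so CDH1 was reduced and remained in the upper part of the array. Its dim second probe set read 3.60 and 3.76 against 2.95 and 2.30. It was lower as well, by a log2 difference of −1.06 ± 0.24 (adjusted p = 0.0297 over all probe sets). With the mean of both probe sets the difference was −2.29 (adjusted p = 0.000389).

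P-cadherin (CDH3), an epithelial cadherin of basal and proliferating layers, showed the largest difference of the members. Its single probe set read 8.35 and 8.38 in the wild type against 3.97 and 4.53 in the knockout-labelled arrays. The groups lay far apart, and the knockout-labelled mean was at percentile 39.7 of all genes, from percentile 82.7. The log2 difference was −4.12 ± 0.20 (SE, adjusted p = 0.000173), a fall matched or exceeded by 175 genes (0.885%). Since the lower end is near the dim part of the array, the 17.3-fold size holds for the deposited scale only.

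N-cadherin (CDH2), the cadherin of neural and mesenchymal cells that often replaces E-cadherin in a transition, was already bright in the wild type. It read 10.59 and 10.41 in the wild type against 9.91 and 9.98 in the knockout-labelled arrays. The groups did not overlap, and both stayed bright, at percentiles 96.3 and 94.1. The log2 difference was −0.55 ± 0.11 (SE, adjusted p = 0.0141, 95% confidence interval −0.83 to −0.27). Its other probe set, at 8.57 and 8.59 against 7.67 and 7.79, was lower by −0.85 ± 0.11 (adjusted p = 0.00616 over all probe sets). The call at the first probe set did not survive leaving out any one of the 4 arrays (adjusted p 0.0586 to 0.107), although the difference stayed negative in each case, between −0.64 and −0.47. Neither probe set gave a higher N-cadherin value in the knockout-labelled arrays.

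The balance of the cadherins was also read within each array, as the log2 ratio of CDH1 to CDH2 minus its wild-type mean. This ratio was −0.03 and 0.03 in the wild-type arrays and −2.64 and −3.28 in the knockout-labelled arrays. The mean shift was −2.96, against a standard deviation of 0.04 between the wild-type arrays and 0.46 between the others. The corresponding ratio of CDH3 to CDH2 moved to −3.81 and −3.32. Both shifts follow from the differences of the single genes already given. N-cadherin mRNA was therefore higher relative to E- and P-cadherin mRNA than in the wild type while being lower itself. No p-value is given for these ratios, since an exact permutation test of 2 arrays against 2 cannot go below 0.333.

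CDH11, a type II cadherin of mesenchymal and bone-forming cells, was dim in every array. Its brightest probe set read 3.69 and 3.37 in the wild type against 3.05 and 3.35 in the knockout-labelled arrays. These values lay close together, at percentiles 30.6 and 24.8 of all genes, and the difference of −0.33 ± 0.17 did not pass (SE, adjusted p = 0.194, 95% confidence interval −0.76 to 0.10). Of its 4 probe sets, 1 was lower and 0 higher: it read 3.24 and 3.39 against 2.46 and 1.99 (adjusted p = 0.0139 over all probe sets). The mean of all 4 passed as lower, at −0.38 (adjusted p = 0.0293), while with _x_at and _s_at probe sets dropped the difference was 0.06 (adjusted p = 0.786). No setting gave a called rise of CDH11.

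Vimentin (VIM), the intermediate filament protein of mesenchymal cells, was one of the brightest genes of both groups. It read 11.60 and 11.67 in the wild type against 13.01 and 13.02 in the knockout-labelled arrays. The groups did not overlap, and the arrays within a group were almost equal. The log2 difference was 1.38 ± 0.10 (SE, adjusted p = 0.000474), and 5.28% of all genes rose at least as far. VIM stood at percentile 98.8 in the wild type, so its mRNA was abundant before the difference and rose from there to percentile 99.8. The dim second probe set read 3.51 and 3.12 against 5.23 and 4.18 and gave nearly the same difference, 1.39 ± 0.37, without passing (adjusted p = 0.0509 over all probe sets). Both VIM probe sets carry an _x_at or _s_at ending, which marks probes that can match several transcripts or genes.

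ZEB1, a zinc-finger homeobox repressor of E-cadherin and other epithelial genes, was the only one of the 5 factors that was called higher. It read 6.74 and 6.88 in the wild type against 8.75 and 8.76 in the knockout-labelled arrays. The knockout-labelled values lay nearly on each other and well above the wild type, moving ZEB1 from percentile 66.4 to percentile 86.2 of all genes. The log2 difference was 1.95 ± 0.10 (SE, adjusted p = 0.000213), and 2.82% of genes rose at least as far. All 4 ZEB1 probe sets had non-overlapping groups with the knockout-labelled arrays above, and 3 passed over all probe sets. The probe set that did not pass read 5.33 and 5.16 against 6.67 and 5.82 (adjusted p = 0.0679). The mean of the 4 differed by 1.42 (adjusted p = 0.000249).

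ZEB2, the paralogue of ZEB1 and a repressor of the same kind, was near the bottom of every array. Its brightest probe set read 2.10 and 1.99 in the wild type against 2.06 in both knockout-labelled arrays. The groups overlapped, at percentiles 8.58 and 8.18, and the difference was 0.02 (adjusted p = 0.895, 95% confidence interval −0.23 to 0.28). None of its 5 probe sets passed, with differences from −0.37 to 0.14. No ZEB2 probe set was called higher beside the rise of ZEB1.

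SNAI2 (Slug), a SNAI-family zinc-finger repressor, moved opposite to ZEB1. Its single probe set read 9.82 and 9.68 in the wild type against 6.30 and 6.25 in the knockout-labelled arrays. It was among the brighter genes of the wild type, at percentile 93.1, and stood at percentile 60.9 in the knockout-labelled arrays, with no overlap. The log2 difference was −3.48 ± 0.10 (SE, adjusted p = 4.77e-05), and 1.25% of genes fell at least as far. Within arrays, the log2 ratio of SNAI2 to ZEB1, set to the wild-type mean, was 0.14 and −0.14 in the wild type. It was −5.39 and −5.45 in the knockout-labelled arrays, a mean shift of −5.42. The shift follows from the SNAI2 and ZEB1 differences already given and is no separate evidence.

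SNAI1 (Snail), the other SNAI factor measured here as a member, was dim. It read 3.04 and 2.97 in the wild type against 3.25 and 3.32 in the knockout-labelled arrays. The knockout-labelled values lay slightly above, but the difference of 0.28 ± 0.10 did not pass (SE, adjusted p = 0.0789, 95% confidence interval 0.03 to 0.54). TWIST1, a basic helix-loop-helix factor of mesoderm, read 1.72 and 1.86 against 1.64 and 1.81. Its groups overlapped at percentiles 4.84 and 3.27, and the difference was −0.06 (adjusted p = 0.723, 95% confidence interval −0.36 to 0.23). At such values a small amount of SNAI1 or TWIST1 mRNA could not be told from none on these arrays.

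**Figure D2:**
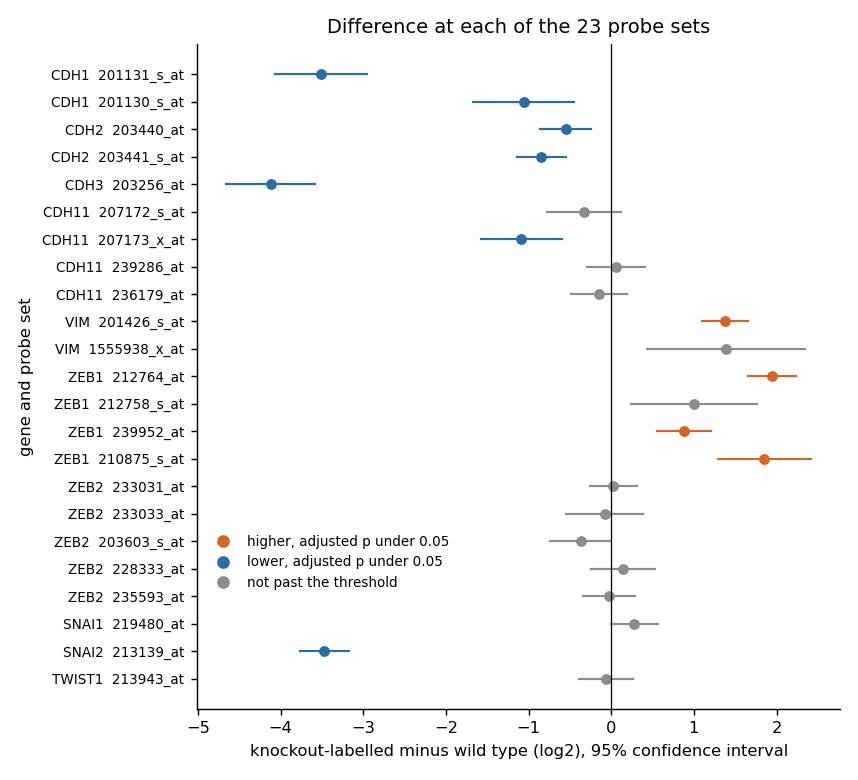
Knockout-labelled minus wild-type difference on the log2 scale (horizontal axis) with its 95% confidence interval from limma for each of the 23 probe sets, coloured by whether it passed an adjusted p of 0.05 over all 54613 probe sets. The probe sets of CDH1, CDH2 and CDH3 all lie left of 0, those of VIM and ZEB1 all lie right of 0, and the 5 of ZEB2 lie around it.

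Over all 23 probe sets, 4 were higher, 7 lower and 12 did not pass, where 26.9% of all probe sets passed, 13.9% higher and 13% lower. No gene had probe sets called in opposite directions. Fewer of these probe sets were called when either wild-type array was left out. The number of called genes over the whole table dropped as well in both cases, so the drop is not particular to the members. The probe sets that passed included every one of CDH1, CDH2, CDH3 and SNAI2, 3 of 4 of ZEB1, 1 of 2 of VIM and 1 of 4 of CDH11.

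CDH3 and CDH1 are next to each other on chromosome 16, with 0 protein-coding genes between them in the RefSeq order, so the genes beside them were read as well. This reading was chosen after the values were seen. ZFP90, a zinc-finger gene on the CDH3 side, read 4.54 and 4.73 in the wild type against 7.83 and 7.76 in the knockout-labelled arrays (log2 difference 3.16 ± 0.11, adjusted p = 7.89e-05). TANGO6, on the CDH1 side, read 6.21 and 6.30 against 7.81 and 7.84 (1.57 ± 0.10, adjusted p = 0.00034). HAS3, a hyaluronan synthase that follows it, read 5.88 and 5.93 against 11.19 and 10.97 (5.18 ± 0.12, adjusted p = 2.57e-05). The immediate neighbours on both sides were therefore higher where both cadherins were lower. Farther out on the CDH3 side, SMPD3 did not pass (adjusted p = 0.63) and PRMT7 was higher by 0.77 ± 0.16 (adjusted p = 0.0179).

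**Figure D3:**
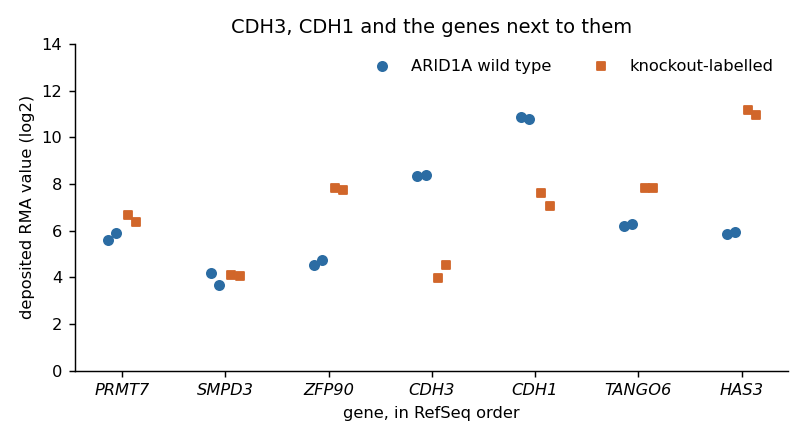
Deposited log2 value (vertical axis) on each array for CDH3, CDH1 and the measured protein-coding genes next to them, in RefSeq order (horizontal axis, not to scale), with circles for wild-type and squares for knockout-labelled arrays. The squares lie below the circles for CDH3 and CDH1 and above them for ZFP90, TANGO6 and HAS3.

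Of 15 measured catenins and junction partners, 5 were higher, 1 was lower and 9 did not pass (list median 0.12 against 0.06 over all genes). The 40% called is close to the 38.7% of all genes, so the count shows nothing about these partners as a group. CTNNB1 (beta-catenin), which binds the cadherin tail, read 11.16 and 11.14 in the wild type against 11.13 and 11.31 in the knockout-labelled arrays (difference 0.07, adjusted p = 0.676). CTNNA1 (alpha-catenin), the link to actin, differed by −0.25 (adjusted p = 0.13), and JUP (plakoglobin), a junction catenin, by −0.20 (adjusted p = 0.254). CTNNB1, CTNNA1 and JUP were picked after their values were seen because they bind the cadherins directly or through another catenin. LIMA1 (EPLIN), an actin-binding protein at adherens junctions, was the 1 that fell, by −3.41 ± 0.21 (SE, adjusted p = 0.000352). NECTIN3, an immunoglobulin-like adhesion protein of the same junctions, rose by 2.55 ± 0.14 (adjusted p = 0.000235), in 1 of its 2 probe sets.

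Of 16 other cadherins measured, 2 were higher, 0 lower and 14 did not pass (12.5% called, against 38.7% of all genes), and 12 of the 16 stood below the median in both groups. CDH16, the kidney-type cadherin, read 3.47 and 3.26 in the wild type against 6.66 and 5.87 in the knockout-labelled arrays (2.90 ± 0.28, adjusted p = 0.00124). CDH17, the liver-intestine cadherin, read 2.81 and 3.03 against 5.20 and 4.76 (2.06 ± 0.18, adjusted p = 0.000987). The groups did not overlap for either gene, and both belong to the so-called 7D cadherins rather than the classical ones. Among genes that shed or internalise E-cadherin, 4 of 10 rose and 2 fell (60% called, against 38.7% of all genes). CBLL1 (Hakai), a ubiquitin ligase for E-cadherin, rose by 0.94 ± 0.12 (adjusted p = 0.0033) and ARF6, a GTPase of its endocytosis, by 1.02 ± 0.09 (adjusted p = 0.00112). MMP7 (matrilysin), a protease that cleaves E-cadherin, fell by 2.44 on the log2 scale (adjusted p = 0.000739). ADAM10, another protease of this list, named here outside the naming rule, rose by 0.74 ± 0.10 (adjusted p = 0.00436). Of the remaining called genes of this list, RAB11A rose by 0.83 ± 0.11 (adjusted p = 0.00318) and NUMB fell by 1.47 on the log2 scale (adjusted p = 0.0233).

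Of 11 further transition factors, 2 were higher and 3 lower. The 45.5% called is near the 38.7% of all genes, and no reading of the factors as a group is made from it. TCF4 (E2-2), a basic helix-loop-helix E protein, read 2.31 and 2.32 in the wild type against 7.36 and 7.27 in the knockout-labelled arrays (5.00 ± 0.10, adjusted p = 1.99e-05). It passed in 7 of its 8 probe sets, all higher. SOX4 rose by 1.33 ± 0.10 (adjusted p = 0.000533), and FOXQ1, a forkhead factor, fell by 1.82 on the log2 scale (adjusted p = 0.000883). SNAI3, TWIST2, FOXC2, PRRX1 and GSC stood below the median in both groups and did not pass. Of 14 cofactors and turnover genes of these factors, 9 rose and 1 fell (71.4% called, against 38.7% of all genes, list median 0.46). LOXL2, a lysyl oxidase that stabilises SNAI1, rose by 4.89 ± 0.12 (adjusted p = 3.1e-05) in 1 of 4 probe sets. CTBP1, a corepressor that ZEB1 binds, rose by 1.42 ± 0.09 (adjusted p = 0.000408), in 3 of 4 probe sets.

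Epithelial genes that ZEB or SNAI factors are known to repress were mostly lower. Of 18 measured, 13 fell, 1 rose and 4 did not pass (77.8% called, against 38.7% of all genes). The list median was −1.62 against 0.06 over all genes. MAL2, an apical transport protein, read 10.60 and 10.71 in the wild type against 4.15 and 4.29 in the knockout-labelled arrays (−6.43 ± 0.11, adjusted p = 1.59e-05). EPCAM, given above, also belongs to this list, and CLDN7, a claudin of tight junctions, fell as well (−4.85 ± 0.31, adjusted p = 0.000369). OCLN (occludin), a tight junction protein named for its promoter, read 10.15 and 10.12 against 7.54 and 7.29 (−2.72 ± 0.12, adjusted p = 0.000132). CRB3, a polarity protein of the Crumbs complex, read 6.86 and 6.82 against 5.65 and 5.78 (−1.13 ± 0.10, adjusted p = 0.00107). The falls were not general: DSP (desmoplakin), CLDN3, CLDN4 and TJP3 did not pass, with differences from −0.24 to 0.26. Of these, DSP and CLDN4 were bright in the wild type, at percentiles 94.5 and 74.3. CLDN3 and TJP3 were dimmer there, at percentiles 48.7 and 36.2. MARVELD3, named here outside the naming rule, stood at percentile 48.4 in the wild type and fell by 0.92 on the log2 scale (adjusted p = 0.00891). Whether the starting level bears on which genes fell was not tested. LLGL2, a polarity protein, rose by 0.70 ± 0.10 (adjusted p = 0.00521), in 1 of its 2 probe sets.

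The promoters of these genes were read for the E-box letters that SNAI and ZEB zinc fingers bind, CAGGTG, which on the opposite strand reads CACCTG. RefSeq windows on GRCh38.p14 were available here for 4 of the 10 members (ZEB1, ZEB2, VIM and CDH2), and only the 250 bases before each listed start were searched. The motif was in 17.5% of all 35116 windows. It was in 2 of the 7 ZEB1 windows and in 0 of the windows of VIM, ZEB2 and CDH2. In the epithelial list it was in 11 of 16 windows, from 9 of the 12 genes with a window, where 20.6% of all genes have a window with it. The list was drawn from known targets of these factors, so a high share is not independent evidence, and a match does not show binding.

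Promoter windows are shown to let the letters be read beside the expression values: those of ZEB1 and VIM, which rose, and those of RAB25, CDS1, OCLN and CRB3, which fell and hold the motif. Each is the stretch before the outermost listed start, 5′ to 3′ on the plus strand, with the E-box in capitals.
ZEB1 (chr10:31318167-31318416): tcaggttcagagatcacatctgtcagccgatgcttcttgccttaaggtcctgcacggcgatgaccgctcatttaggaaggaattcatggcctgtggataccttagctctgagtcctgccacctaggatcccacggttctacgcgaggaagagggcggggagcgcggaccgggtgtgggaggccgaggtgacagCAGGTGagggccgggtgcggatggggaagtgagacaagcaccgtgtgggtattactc
VIM (chr10:17227991-17228240): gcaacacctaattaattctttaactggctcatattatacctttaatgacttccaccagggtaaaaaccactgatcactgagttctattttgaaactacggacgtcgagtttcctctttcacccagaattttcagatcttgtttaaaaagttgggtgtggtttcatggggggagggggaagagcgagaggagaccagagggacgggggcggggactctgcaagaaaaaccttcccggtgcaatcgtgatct
RAB25 (chr1:156060910-156061159): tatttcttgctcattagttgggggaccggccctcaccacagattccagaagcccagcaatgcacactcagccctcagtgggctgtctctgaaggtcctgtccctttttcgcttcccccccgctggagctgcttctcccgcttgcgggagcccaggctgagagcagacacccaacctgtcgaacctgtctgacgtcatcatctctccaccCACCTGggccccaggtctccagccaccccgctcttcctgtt
CDS1 (chr4:84582877-84583126): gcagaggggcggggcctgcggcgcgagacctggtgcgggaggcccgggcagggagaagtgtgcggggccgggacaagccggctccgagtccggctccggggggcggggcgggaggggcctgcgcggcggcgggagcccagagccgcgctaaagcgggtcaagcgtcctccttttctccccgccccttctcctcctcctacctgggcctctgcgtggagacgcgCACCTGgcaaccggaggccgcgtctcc
OCLN (chr5:69492297-69492546): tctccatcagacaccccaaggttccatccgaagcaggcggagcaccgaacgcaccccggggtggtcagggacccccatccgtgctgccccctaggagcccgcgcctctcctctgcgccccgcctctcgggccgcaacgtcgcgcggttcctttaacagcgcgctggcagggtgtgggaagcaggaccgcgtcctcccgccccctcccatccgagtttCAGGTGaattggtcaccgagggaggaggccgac
CRB3 (chr19:6464021-6464270): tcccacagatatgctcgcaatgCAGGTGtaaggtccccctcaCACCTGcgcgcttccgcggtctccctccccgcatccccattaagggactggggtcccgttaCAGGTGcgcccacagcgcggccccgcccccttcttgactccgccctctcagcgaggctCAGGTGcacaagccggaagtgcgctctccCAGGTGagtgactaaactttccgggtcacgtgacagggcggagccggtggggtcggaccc
RAB25, a small GTPase of epithelial recycling, read 7.77 and 7.97 in the wild type against 2.88 and 3.61 in the knockout-labelled arrays, and its motif begins 41 bases before the start. CDS1, a phospholipid synthesis enzyme, read 8.82 and 8.84 against 4.97 and 4.88, with the motif 27 bases before the start. The OCLN motif begins 33 bases before the start, and CRB3 holds 5 copies of the motif, the nearest of them beginning 60 bases before the start. The ZEB1 motif begins 57 bases before the outermost ZEB1 start. These 4 epithelial genes were picked after the values were seen, as the 3 largest falls with a match before the outermost start and the gene with the most matches. Genes on the chromosome that holds MAL2 were left out of this choice. MAL2, the largest fall of the list, could therefore not be picked.

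Regulators that hold epithelial identity were split. Of 13 measured, 6 fell, 5 rose and 2 did not pass (84.6% called, against 38.7% of all genes, list median 0.16). GRHL2, a grainyhead factor that activates CDH1 and represses ZEB1, read 6.44 and 6.50 in the wild type against 3.63 and 2.96 in the knockout-labelled arrays (−3.18 ± 0.23, adjusted p = 0.000581). OVOL2, another repressor of ZEB1, read 5.40 and 5.75 against 1.96 and 3.21 (−2.99 ± 0.42, adjusted p = 0.00451), in 1 of 2 probe sets. Both were lower where ZEB1 was higher, and ESRP1, a splicing factor that ZEB1 represses, also fell (−6.46 ± 0.15, adjusted p = 2.57e-05). In the other direction GRHL3 rose by 1.98 ± 0.17 (adjusted p = 0.000937), ELF3, an epithelial ETS factor, by 1.49 ± 0.16 (adjusted p = 0.00176) and FOXA1 by 1.15 ± 0.13 (adjusted p = 0.00194). FOXA1 passed in 1 of its 2 probe sets.

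Among the other intermediate filament genes, the partners and counterparts of vimentin, 3 of 10 rose and 2 fell (50% called, against 38.7% of all genes). NES (nestin), which assembles with vimentin, read 4.24 and 3.78 in the wild type against 6.19 and 5.71 in the knockout-labelled arrays (1.94 ± 0.23, adjusted p = 0.00246), in 1 of 2 probe sets. SYNM (synemin) rose by 0.83 ± 0.15 (adjusted p = 0.0115). Of the keratins, KRT7 fell by 2.32 on the log2 scale (adjusted p = 0.000106) in 1 of 4 probe sets and KRT19 by 0.92 (adjusted p = 0.00279) in 1 of 2, while KRT8 rose by 0.82 ± 0.13 (adjusted p = 0.00582). KRT18 read 12.24 and 12.38 against 12.58 and 12.52 (adjusted p = 0.144). KRT7, KRT8, KRT18 and KRT19 were all at or above percentile 94.9 in the knockout-labelled arrays. KRT20, an intestinal keratin, was dim in both groups, at percentiles 10.2 and 14.5 (adjusted p = 0.286).

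Of 17 mesenchymal genes measured, 5 rose, 4 fell and 8 did not pass (52.9% called, against 38.7% of all genes, list median 0.16). S100A4, a calcium-binding protein of motile cells, read 7.08 and 7.62 in the wild type against 11.63 and 11.20 in the knockout-labelled arrays (4.06 ± 0.24, adjusted p = 0.000293). SPARC, a matrix protein named here outside the naming rule, read 4.27 and 4.34 against 7.09 and 7.15 (2.81 ± 0.10, adjusted p = 7.19e-05). ACTA2, smooth muscle actin, rose by 2.97 ± 0.22 (adjusted p = 0.000615) in 1 of 3 probe sets. COL5A1, a fibrillar collagen chain, rose by 4.13 ± 0.11 (adjusted p = 3.31e-05). COL1A1, the main collagen I chain, read 8.98 and 8.95 against 4.22 and 4.18 (−4.76 ± 0.09, adjusted p = 2.06e-05), in 3 of 5 probe sets. FN1 (fibronectin) was lower in all 7 of its probe sets (−4.32 ± 0.11, adjusted p = 3.16e-05), and POSTN (periostin) was lower in 1 of 4 (−3.94 ± 0.19, adjusted p = 0.000158). TNC, a matrix protein also named outside the naming rule, read 8.63 and 8.66 in the wild type against 6.05 and 5.94 in the knockout-labelled arrays (−2.65 ± 0.10, adjusted p = 8.63e-05).

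Markers of other cell types were read beside these genes. Of 7 fibroblast markers, 5 of which are also in the mesenchymal list, 2 fell and 0 rose (28.6% called, against 38.7% of all genes). Their mean level per array was 4.92 to 4.95 in the wild type against 3.51 to 3.72 in the knockout-labelled arrays. Of 5 endothelial markers 0 passed, with a mean level of 3.35 to 3.37 against 3.37 to 3.65. Of 4 leukocyte markers 1 fell (25% called), with PTPRC (CD45) at percentiles 9.69 and 7.41. Of 6 hepatocyte markers, 3 were higher and 1 lower (66.7% called). No fibroblast, endothelial or leukocyte marker was called higher beside the higher VIM and ZEB1. Most of them were dim: 5 fibroblast, 5 endothelial and 4 leukocyte markers stood below the median in both groups. The called shares of these 3 lists were below that of all genes, so no reading of them as groups is made.

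TGF-beta signalling, an inducer of ZEB and SNAI factors, was split evenly. Of 14 genes, 6 rose and 6 fell (85.7% called, against 38.7% of all genes, list median −0.01). INHBA, the activin A subunit, read 11.06 and 11.07 in the wild type against 3.28 and 3.42 in the knockout-labelled arrays (−7.71 ± 0.10, adjusted p = 1.35e-05), in all 3 of its probe sets. LTBP1, a latent TGF-beta binding protein, fell by 1.61 on the log2 scale (adjusted p = 0.000443), in 1 of its 2 probe sets. SMAD7, the inhibitory SMAD, rose by 1.17 ± 0.11 (adjusted p = 0.00113) and SMAD2, a signal transducer, by 1.12 ± 0.09 (adjusted p = 0.00084). SMAD2 passed in 2 of 6 probe sets.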

How the data were processed

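Expression was measured on 4 Affymetrix 3′ arrays, 2 per label. The authors deposited log2 values, 1 per probe set and array. RMA and affy are named, per the submitters' processing notes, without versions. RMA subtracts background, applies quantile normalization and summarises probes, so overall brightness differences between arrays are removed. The log2 scale was read from the values (array medians 3.99 to 4.03). Precision is limited by having 4 arrays.

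Probe sets were named by the platform annotation of 2016 (41091 with 1 symbol, 1801 with several, 11721 with none). Each gene took the probe set with the highest mean. The group difference was fitted in R 4.3.3 with limma 3.58.1 (lmFit, eBayes), over all 19775 genes and, for single probe sets, over all 54613, with Benjamini-Hochberg adjustment. The fits were tested on simulated data. SE is limma's moderated standard error.

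The members and lists were chosen with earlier results of these data known. Of 148 list genes 138 were measured. Named from each list were up to 3 called genes per direction, with exceptions stated. Background correction could not be varied from these values.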

Additional observations from a re-analysis of the deposited data

How the results depend on the processing

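CDH1, CDH3, SNAI2 and ZEB1 kept their direction and call in every alternative that gave them a value, as did VIM. With _x_at and _s_at probe sets dropped, CDH1 and VIM gave none, since all of theirs end so. In that setting 1 member was higher, as were 3312 of all 17098 genes then tested. CDH11, ZEB2, SNAI1 and TWIST1 gave none with values floored at 4.01 or with dim genes left out. With the floor, 7 member probe sets were called, 2 of them higher, where 30674 probe sets of the whole table remained. Over all genes, 7855 of 13588 were called with the floor. Leaving out 1 array at a time gave 5 called members each time, 2 higher and 3 lower, with 5 to 10 called probe sets (2 to 5 higher, 3 to 6 lower). Over the lists, 25 to 36 genes were then higher and 28 to 35 lower. Over all genes, 3939 to 6220 were called (2055 to 3402 higher, 1763 to 2818 lower), with 3939 when wild-type replicate 1 was left out and 4061 when wild-type replicate 2 was.

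Same-numbered arrays did not deviate together (correlation −0.105 across genes). With 2 arrays per group this correlation is a single value, so it cannot decide whether the numbers pair the arrays. With the replicate block 6 members were called, as without it, 12 member probe sets and 6679 genes. With the numbers crossed, chosen after seeing the data, it called 6 members, 10 member probe sets and 7301 genes.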

Other observations

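The genes whose values over the 4 arrays, centred on their own mean, lay closest to those of ZEB1 were PEG10, SLC24A1 and ATMIN, at Euclidean distances of 0.0664, 0.0701 and 0.0797 on the log2 scale. PEG10, a retrotransposon-derived imprinted gene, read 7.68 and 7.82 in the wild type and 9.61 and 9.70 in the knockout-labelled arrays. Closest to CDH3 were MALL, C4BPB and ICAM2, at distances of 0.132, 0.16 and 0.195. MALL, a membrane raft protein of the MAL family, read 7.42 and 7.54 against 3.12 and 3.78. ICAM2, an adhesion ligand of leukocyte integrins, read 8.97 and 9.25 against 4.64 and 5.20.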
